A study of Mus musculus with 2 samples.

Results

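The genes described here are 10 members of the Bcl2 family, chosen by name for their roles as antiapoptotic genes (*Bcl2*, *Bcl2l1* and *Mcl1*), effectors (*Bax* and *Bak1*) and BH3-only genes (*Bcl2l11*, *Bad*, *Bid*, *Bbc3* and *Pmaip1*). Of these, 9 were measured, out of 19938 genes that had a probe set with a single gene symbol, and *Bax* was not analysed here. They were read on 2 arrays of CD3+CD4+ T cells sorted by flow cytometry from pooled pancreatic lymph nodes (PLN), 1 array for mice given nondepleting anti-CD4 Ab (ND αCD4, clone YTS177) and 1 for mice that received isotype control Ab (clone 2A3). Both groups were 8-week-old BDC mice, NOD mice that carry the transgenic TCR of a diabetogenic CD4+ T cell clone, and both were taken 48 hours after 1 mg of Ab in vivo. The labels give age and agent under each other's headings and number the BDC clone differently from the paper, which is followed here. Cells with this 1 transgenic receptor are a model of an autoreactive T cell and not of a mixed repertoire. The sort was for CD3+CD4+ cells and not for this receptor, so whether all sorted cells carried it is not known here. With 1 array per condition there is no spread between samples, so no test was run, no p value is given, and every difference below describes these 2 arrays.

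The Bcl2 family decides whether a cell opens its mitochondria and dies. Antiapoptotic proteins such as Bcl2, Bcl-xL and Mcl1 hold the effectors Bax and Bak in check, and BH3-only proteins such as Bim, Bid and Puma bind the antiapoptotic proteins or act on the effectors when growth factor or antigen signals change. In T cells, Bcl2 sustains resting cells under IL-7, Bcl-xL is induced by TCR and CD28 signals, Mcl1 is needed throughout T cell life, and Bim removes self-reactive thymocytes and contracts responding T cells.

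No member of the family reached 1.5-fold in either direction after ND αCD4, and the largest values were those of *Bcl2l1* (log2 ratio -0.35), *Bid* (-0.28) and *Bcl2* (0.27). All 9 measured members exceeded background in both arrays, where background is the 95th percentile of probe sets for olfactory and vomeronasal receptors (7.56 in the ND αCD4 array and 7.64 in the isotype control array on the log2 scale). None of the 9 was at least 1.5-fold higher, against 0.212% of the 13222 genes detected in at least 1 array, and none was at least 1.5-fold lower, against 1.01% (1.22% in either direction). The log2 ratio, ND αCD4 minus isotype control, was above 0 in 5 members and below 0 in 4. Their median was 0.06, beside -0.01 over all detected genes. The median size of the log2 ratio, whatever its sign, was 0.13 among members and 0.09 among all detected genes. The middle 95% of detected genes lay between -0.39 and 0.28, and all 9 members lay inside it. Each member has 1 probe set with a single symbol, so no member has a second reading on the array.

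**Figure D1:**
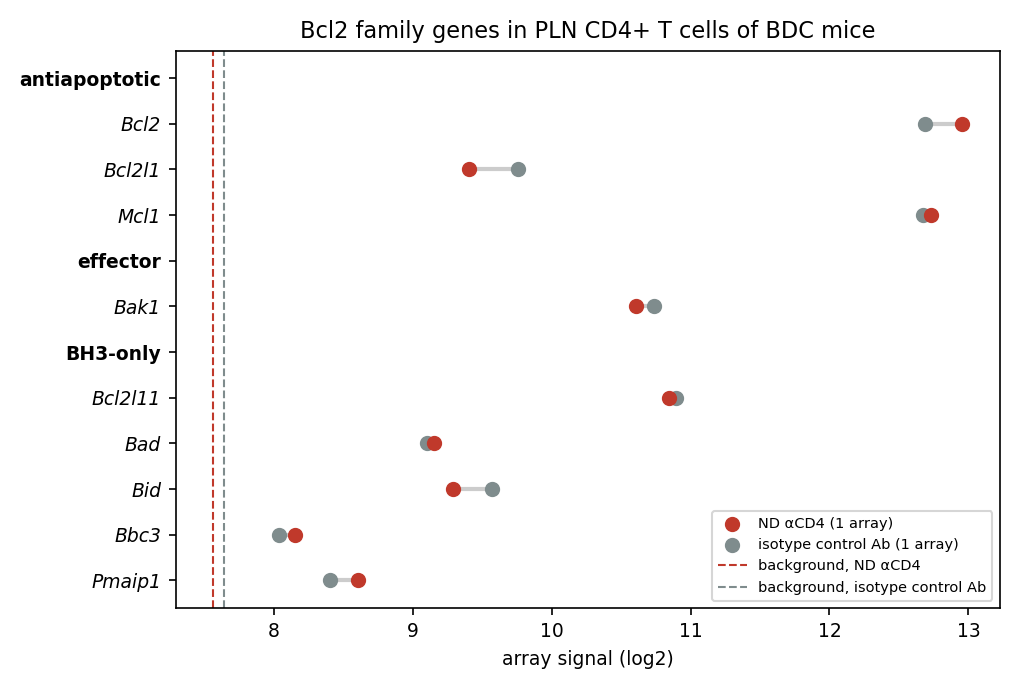
Array signal (log2) of the 9 measured members by role in the ND αCD4 array (red) and the isotype control array (gray), 1 array each, with dashed lines at the background of each array. *Bbc3*, at 8.15 after ND αCD4 and 8.04 after isotype control Ab, is nearest to background. Signals of different genes are not comparable, since each has its own probes.

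Among the antiapoptotic genes, the log2 ratios of *Bcl2* and *Bcl2l1* had opposite signs. *Bcl2*, which encodes the founding survival protein of the family, had a log2 signal of 12.96 in the ND αCD4 array and 12.69 in the isotype control array. This is a log2 ratio of 0.27, or 1.21-fold, and it was the highest of the members. Of all detected genes, 2.68% had a higher log2 ratio. *Bcl2l1*, which encodes Bcl-xL, had a log2 signal of 9.41 in the ND αCD4 array and 9.76 in the isotype control array. Its log2 ratio of -0.35, or 1.28-fold lower, was the lowest of the members and the largest in size. Of all detected genes, 3.20% had a lower one. *Mcl1*, which encodes a short-lived survival protein, had a log2 signal of 12.73 in the ND αCD4 array and 12.68 in the isotype control array, a log2 ratio of 0.06. The *Mcl1* values were close together, and 66.0% of detected genes had a log2 ratio at least as large in size.

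The 1 effector that was measured, *Bak1*, encodes the pore-forming protein Bak of the mitochondrial outer membrane. Its log2 signal was 10.61 in the ND αCD4 array and 10.74 in the isotype control array, a log2 ratio of -0.13. A log2 ratio of this size or more was found in 32.8% of detected genes.

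The log2 ratios of the 5 BH3-only genes were above 0 in 3 and below 0 in 2, with 0.06 as their median. *Bid*, whose product is cut by caspase-8 and so carries death receptor signals to the mitochondria, had a log2 signal of 9.29 in the ND αCD4 array and 9.57 in the isotype control array. Its log2 ratio of -0.28 corresponds to 1.22-fold lower and was the largest in size among the BH3-only genes. *Pmaip1*, which encodes Noxa, a partner of Mcl1, had a log2 signal of 8.60 in the ND αCD4 array and 8.40 in the isotype control array. Its log2 ratio was 0.20, or 1.15-fold higher. Of all detected genes, 5.05% had a log2 ratio below that of *Bid* and 5.80% had one above that of *Pmaip1*.

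*Bcl2l11*, which encodes Bim, had a log2 signal of 10.85 in the ND αCD4 array and 10.90 in the isotype control array. Its log2 ratio was -0.05, and 69.2% of detected genes lay at least as far from 0. *Bad*, whose product is held inactive by phosphorylation when survival signals are present, had a log2 signal of 9.15 in the ND αCD4 array and 9.10 in the isotype control array, a log2 ratio of 0.06. *Bbc3*, which encodes Puma, had a log2 signal of 8.15 in the ND αCD4 array and 8.04 in the isotype control array, a log2 ratio of 0.11. The values of *Bcl2l11* and *Bad* differed by 1.04-fold between the arrays, and those of *Bbc3* by 1.08-fold.

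**Figure D2:**
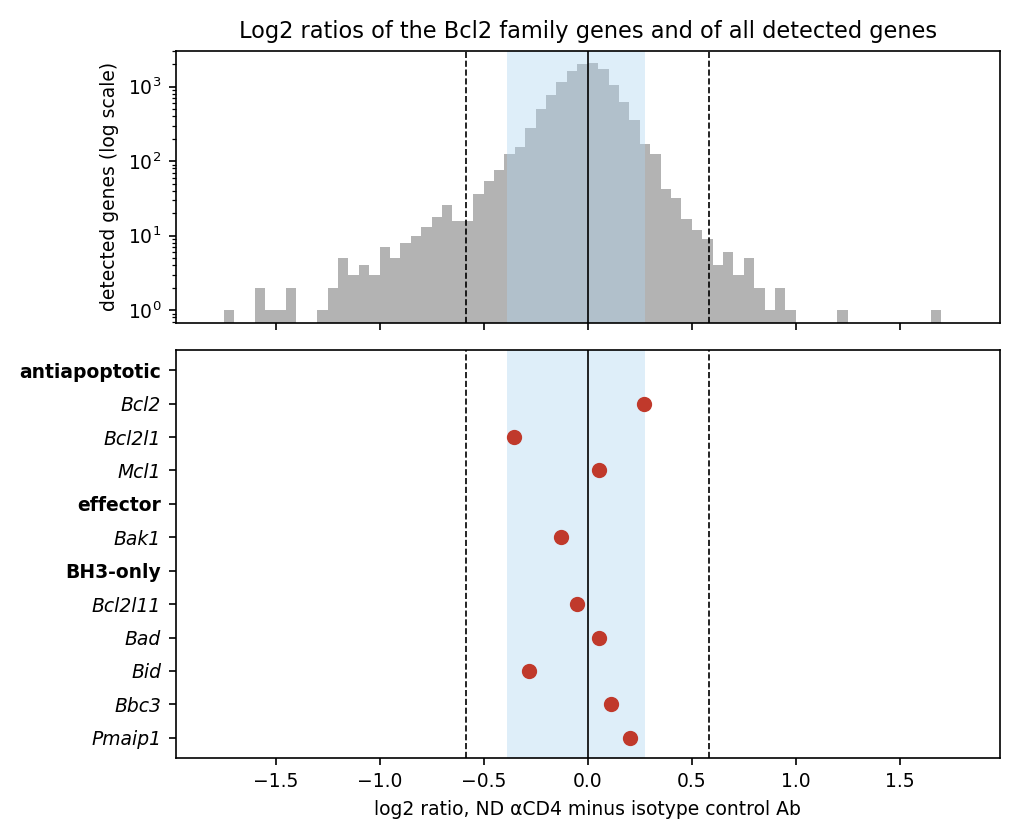
Upper panel, number of detected genes (log scale) by log2 ratio, ND αCD4 minus isotype control Ab. Lower panel, log2 ratio of each member by role, with 0 as a solid line, the 1.5-fold rule as dashed lines and the middle 95% of detected genes shaded. *Bcl2* at 0.27 and *Bcl2l1* at -0.35 lie nearest to the edges of the shaded band, which runs from -0.39 to 0.28.

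For scale, the within-gene SD of the log2 ratio of a probe set was 0.0929, pooled over 550 genes with exactly 2 detected probe sets. The log2 ratio was larger in size than this SD in 6 of 9 members and in 46.5% of all detected genes, so a size beyond it was common. It was smaller in *Mcl1*, *Bcl2l11* and *Bad*. The SD covers only the spread between probe sets of a gene on the same 2 arrays, and not differences between arrays, mice or sorts.

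Members can also be set against each other by the difference of their log2 ratios, which compares how far each gene moved and not how abundant its mRNA was. Relative to *Bcl2l1*, *Bcl2* differed by 0.62 between the arrays, or 1.54-fold. By construction no pair of members differed more, since these 2 genes had the highest and the lowest log2 ratio. Neither gene reached 1.5-fold between the arrays. Relative to the 6 measured death genes (*Bak1* and the BH3-only genes), *Bcl2* was shifted upward against each, by 0.07 against *Pmaip1* to 0.55 against *Bid*. *Bcl2l1* was shifted downward against each, by -0.07 against *Bid* to -0.56 against *Pmaip1*. For *Mcl1*, 3 differences were above 0 and 3 below 0, between -0.15 and 0.34. Against *Bcl2l11*, the difference was 0.32 for *Bcl2*, -0.30 for *Bcl2l1* and 0.10 for *Mcl1*. These 18 differences derive from 9 log2 ratios and are not separate measurements, and the signs for *Bcl2* and *Bcl2l1* follow from their being the highest and the lowest log2 ratio of the members.

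**Figure D3:**
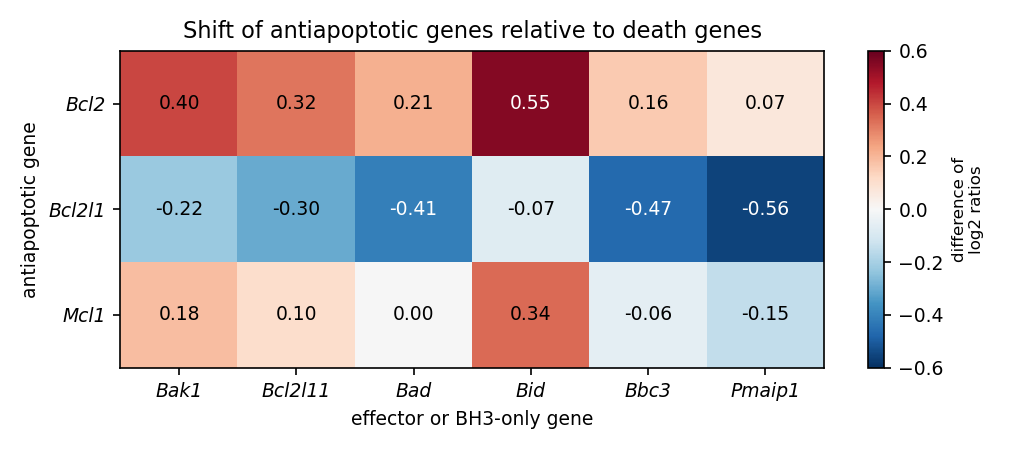
Difference of log2 ratios (antiapoptotic gene in rows minus effector or BH3-only gene in columns; log2 ratio is ND αCD4 minus isotype control Ab), red above 0 and blue below 0. All 6 cells of the *Bcl2* row are above 0 and all 6 of the *Bcl2l1* row are below 0. The highest and lowest log2 ratios of the members fix these signs, and the sizes derive from the same log2 ratios.

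Foxo transcription factors are known to act on *Bcl2l11* and *Bbc3* in several cell types, and the study is about the Foxo1 axis, so the promoters of the members were searched for the Foxo core motif GTAAACA on both strands. Windows of 300 bases, from 250 before to 50 after a start site, were taken from RefSeq (GRCm38.p6), with 14 windows for 8 of the 9 measured members (several start sites for *Bcl2l11*, *Bcl2l1*, *Bbc3* and *Bad*, and none used for *Pmaip1*). The motif was found in 2 of the 14 windows and in 3.65% of all 32851 windows. Both are shown because they are the only ones of the 14 searched windows with the motif, which is in capitals. *Pmaip1* was left out of the search, so nothing is said of its promoter. They lie at chr2:128125788-128126087 (plus strand, *Bcl2l11*) and chr7:16310011-16310310 (plus strand, *Bbc3*), and the motif begins 227 and 167 bases before the start site. In *Bbc3* it reads as TGTTTAC, the other strand of the same letters.
Bcl2l11: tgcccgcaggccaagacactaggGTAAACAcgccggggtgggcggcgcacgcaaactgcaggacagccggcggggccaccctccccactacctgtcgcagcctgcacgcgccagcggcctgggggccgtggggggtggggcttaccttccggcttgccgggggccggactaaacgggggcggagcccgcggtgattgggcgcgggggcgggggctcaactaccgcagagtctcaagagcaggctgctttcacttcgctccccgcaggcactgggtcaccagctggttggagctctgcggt
Bbc3: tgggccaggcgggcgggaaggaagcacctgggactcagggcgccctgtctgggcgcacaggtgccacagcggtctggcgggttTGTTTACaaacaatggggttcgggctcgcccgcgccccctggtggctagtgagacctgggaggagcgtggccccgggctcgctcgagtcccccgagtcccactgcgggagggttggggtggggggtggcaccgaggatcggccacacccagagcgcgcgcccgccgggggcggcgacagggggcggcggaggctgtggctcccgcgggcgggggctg
The 2 genes with these windows had log2 ratios of -0.05 (*Bcl2l11*) and 0.11 (*Bbc3*), while *Foxo1* had a log2 signal of 12.66 in the ND αCD4 array and 12.46 in the isotype control array (log2 ratio 0.20). *Foxo3*, a related factor, had a log2 signal of 10.67 in the ND αCD4 array and 10.54 in the isotype control array (0.14). The other motifs searched, on both strands, were the E-box CACGTG (in 1 of 14 member windows, of *Bbc3*, and 7.15% of all windows) and the KLF core CCACCC (5 of 14 and 31.5%). The STAT motif TTCNNNGAA (8.30% of all windows), the E2F motifs TTTCCCGC and TTTGGCGC (1.56%), the AP-1 motif TGANTCA (7.81%), the CRE motif TGACGTCA (1.79%) and the NF-κB motif of the immunoglobulin κ enhancer (0.155%) were in none of the 14. Some windows of a gene overlap, a match in a promoter is a description of its letters, and no match concerns only these windows.

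Among further family genes, the log2 ratios of those detected spanned a narrower range. Of 15 further family genes, 12 were measured and 8 were detected, and their log2 ratios ran from -0.07 to 0.05 with a median of -0.04, beside -0.35 to 0.27 in the 9 members. The difference between the lists was not tested. None reached 1.5-fold. *Bcl2l13*, a mitochondrial family member, had a log2 signal of 10.75 in the ND αCD4 array and 10.82 in the isotype control array. *Bok*, an effector-like member, had a log2 ratio of -0.06, and *Bmf*, a BH3-only gene, of -0.06. *Bcl2l2*, *Bcl2l10*, *Bcl2l14* and *Bcl2l15* did not exceed background in either array. *Bcl2a1a*, *Bcl2a1b* and *Bcl2a1d*, near-identical antiapoptotic genes, were not analysed here because none had a probe set with a single gene symbol.

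Downstream of the mitochondria, none of the apoptosome and caspase genes reached 1.5-fold, where 1.22% of all detected genes did. At that share a short list would seldom hold such a gene, so its absence says little. All 12 measured genes of the apoptosome and caspase list were detected, with 6 above 0, 6 below 0 and a median of -0.01. *Aifm1*, which encodes a mitochondrial flavoprotein with a role in cell death, had a log2 signal of 10.01 in the ND αCD4 array and 10.30 in the isotype control array (log2 ratio -0.30). *Cycs*, which encodes cytochrome c, had a log2 ratio of -0.19 in its brightest probe set and of -0.18 in another. The dimmest of its 3 probe sets differed from these in sign, at 0.57. That probe set was at 8.26 in the ND αCD4 array and at 7.68 in the isotype control array, close to the background of 7.64 there. *Dffb*, a DNase of apoptosis, had a log2 ratio of 0.18. Of the 5 inhibitor of apoptosis genes, *Birc5*, which encodes survivin and is expressed in dividing cells, did not exceed background in the ND αCD4 array (7.51) and had a log2 value of 8.12 after isotype control Ab, so it was at least 1.47-fold lower. By its measured values it was the 1 gene of that list past 1.5-fold. The other 4 had log2 ratios between *Birc3* at -0.10 and *Birc2* at 0.05, with *Xiap*, a direct caspase inhibitor, at -0.06.

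The 9 detected genes of the death receptor pathway had log2 ratios from -0.24 to 0.08, with 7 below 0 and 2 above 0. None was past 1.5-fold, where 1.22% of all detected genes were. *Tnfrsf10b*, the mouse TRAIL receptor gene, had a log2 signal of 8.66 in the ND αCD4 array and 8.90 in the isotype control array. *Cflar*, which encodes the caspase-8 inhibitor cFLIP, had a log2 ratio of -0.09 and the adaptor gene *Fadd* of -0.08. Genes for channel proteins of the mitochondrial outer membrane (*Vdac1*, *Vdac2* and *Vdac3*), for mitochondrial fusion and fission (*Opa1*, *Mfn1*, *Mfn2* and *Dnm1l*) and for the endoplasmic reticulum proteins *Tmbim6* and *Bcap31* formed 1 list, and all 9 detected genes of it were below 0, where 52.7% of all detected genes were below 0. Their median was -0.05, and none reached 1.5-fold, beside the same 1.22% of all detected genes. The channel genes *Vdac1* (11.36 in the ND αCD4 array and 11.65 in the isotype control array, log2 ratio -0.28) and *Vdac3* (-0.15) were farthest from 0, followed by *Opa1* (-0.12), whose product acts at the inner membrane.

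**Figure D4:**
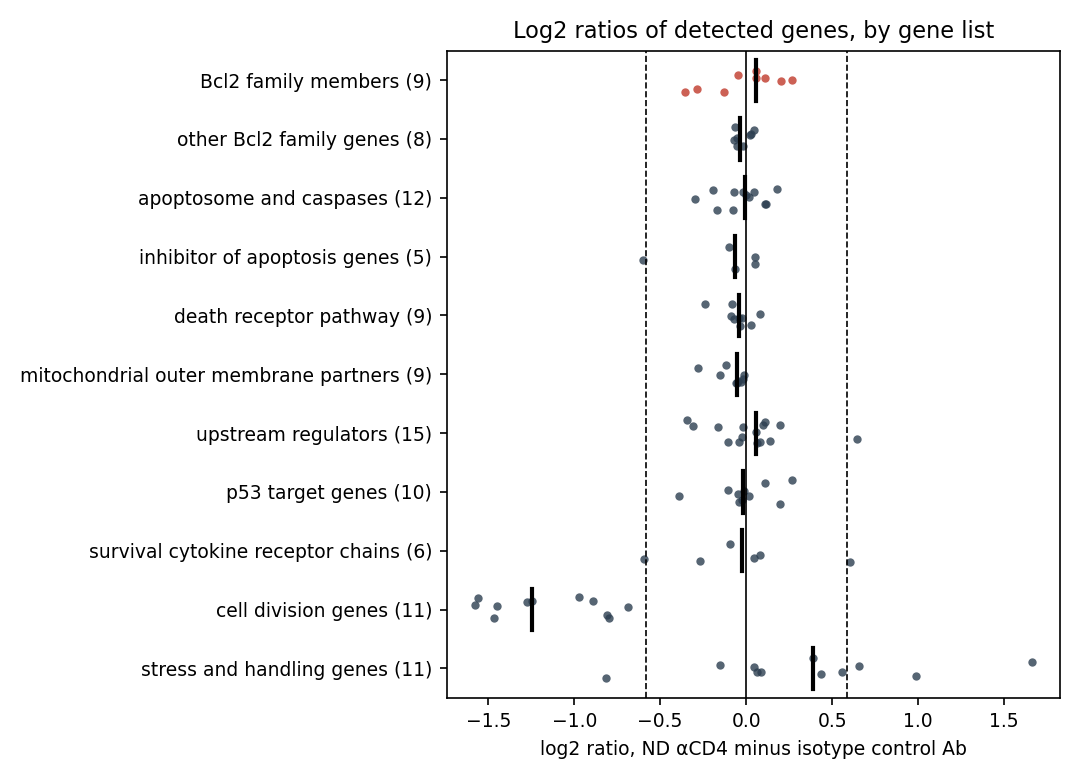
Log2 ratio, ND αCD4 minus isotype control Ab, for the detected genes of each list (points), with their number in brackets, list medians as black bars, 0 as a solid line and the 1.5-fold rule as dashed lines. The members (red) have a median of 0.06 and lie within the dashed lines, while the cell division genes have a median of -1.24. Points are spread vertically only to separate them.

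Of 16 genes known to act on the members, 15 were detected, with a median log2 ratio of 0.06. Beside 1.22% of all detected genes, 1 of the 15 passed 1.5-fold. This was *Pim1*, a kinase gene induced by cytokines whose product phosphorylates Bad, at 12.07 in the ND αCD4 array and 11.42 in the isotype control array (1.56-fold higher). *Dynll2*, a dynein light chain gene whose product binds Bmf, had a log2 signal of 10.09 in the ND αCD4 array and 10.43 in the isotype control array (log2 ratio -0.34). *Myc*, which drives growth and sensitizes cells to apoptosis, had a log2 ratio of -0.31. Genes for the ubiquitin ligase *Huwe1* (0.11) and the deubiquitinase *Usp9x* (-0.04), which set Mcl1 turnover, were within 1.5-fold. *Trp53*, the gene of the p53 factor that drives *Bbc3* and *Pmaip1*, was not analysed here. Of 13 measured p53 target genes other than members, 10 were detected, with a median log2 ratio of -0.02. None of the 10 passed 1.5-fold, beside the same 1.22% of all detected genes. The values farthest from 0 were those of *Plk3*, a stress kinase gene, at -0.39, *Btg2*, an antiproliferative gene, at 0.27 and *Sesn1*, a stress-response gene, at 0.20.

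Of the 6 measured receptor chains through which cytokines sustain T cells, 2 passed 1.5-fold, beside 1.22% of all detected genes. Their signs were opposite. Over the 6 chains the median log2 ratio was -0.02, with 3 above 0 and 3 below 0. *Il7r*, the IL-7 receptor chain CD127, had a log2 signal of 12.14 in the ND αCD4 array and 11.54 in the isotype control array, 1.52-fold higher. *Il2ra*, the IL-2 receptor chain CD25, had a log2 signal of 10.82 in the ND αCD4 array and 11.42 in the isotype control array, 1.51-fold lower. *Il2rb*, shared by the IL-2 and IL-15 receptors, had a log2 ratio of -0.27. As 2 arrays give 1 log2 ratio per gene, no relation between these genes and the members can be tested.

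Other gene groups differed more between the pools. All 11 measured cell division genes (*Mki67*, *Top2a*, *Ccna2*, *Ccnb2*, *Cdk1*, *Bub1*, *Rrm2*, *Mcm2*, *Mcm5*, *Tyms* and *Aurkb*) were at least 1.5-fold lower after ND αCD4, with log2 ratios from -1.58 to -0.69 and a median of -1.24, and *Bub1* did not exceed background there. Linear signals summed over the 10 genes above background in both arrays differed by -1.04 on the log2 scale. Of 11 measured stress and handling genes, *Jun* (log2 ratio 1.66), *Ppp1r15a* (0.99) and *Fos* (0.65) were at least 1.5-fold higher and the heat shock gene *Hsph1* (-0.82) was at least 1.5-fold lower. The CD8 T cell markers *Cd8a* (0.72) and *Cd8b1* (0.45) had log2 ratios above 0, although the sort was for CD4+ cells. The 6 measured markers of CD4+ T cells were between 12.14 and 13.78 in the ND αCD4 array and between 12.08 and 13.76 in the isotype control array, with *Cd3e* at 13.78 in the ND αCD4 array and 13.76 in the isotype control array. *Cd4* itself was at 13.48 in the ND αCD4 array and 13.38 in the isotype control array. In bulk samples a smaller share of cells with a transcript and less transcript per cell cannot be told apart, and the part of cell division, handling or CD8 T cells in the values of the members was not tested. Treatment and pool cannot be told apart.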

How the data were processed

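The authors deposited 1 log2 value for each probe set and array. Per the labels these came from Affymetrix Expression Console. How background, normalization and probe set summary were handled was not given in the sources used. The deposited scale was taken as log2 from its values (2.52 to 14.7, median 8.15 in both arrays). The probe set identifiers are those of an earlier mouse gene ST array than the paper names. Of 35557 probe sets, 21789 had 1 symbol in the platform annotation, 1621 several and 12147 none, and only the first group was used. The probe set with the highest mean stood for a gene, and 13222 of 19938 genes were detected. Log2 ratios are ND αCD4 minus isotype control without further scaling, and a gene counted as higher or lower at 1.5-fold or more. For a gene below background in 1 array, that array's background gave a bound. The number of arrays limits the precision.

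All members are named, as are all genes of the mitochondrial list. Of each other list, genes past 1.5-fold, up to 3 with the largest log2 ratio in size and known regulators are named, and further genes named to describe a role (*Birc2*, *Huwe1*, *Usp9x*, *Cd4* and *Cd8a*) were chosen after their values were seen. The members, lists and motifs were chosen with earlier results of these data known. The motifs were searched after the values of the members were seen. Marker lists of other cell types are given in the closing section. The tools were matplotlib 3.10.9, statsmodels 0.14.6, pandas 2.3.3, numpy 2.4.6 and Python 3.11.15.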

Additional observations from a re-analysis of the deposited data

How the results depend on the processing

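Other scalings (median centring, quantile normalization, lowess with fraction 0.3 and 3 iterations), a floor at background, averaged probe sets, other detection filters (none, both arrays, the 99th percentile of background) and a 2-fold rule were tried. None of the members reached 1.5-fold under any of them. Only the 3 scalings could move the log2 ratio of a member, since each has 1 probe set and exceeded background in both arrays. The 27 log2 ratios under them kept their sign and moved by at most 0.03, less than the within-gene SD of 0.0929 of probe sets. *Bcl2* ran from 0.27 to 0.30 and *Bcl2l1* from -0.36 to -0.35. *Bbc3* was not detected at the 99th percentile of background. At the 2-fold rule 27 of all detected genes were counted, fewer by construction. The median of the cell division list was -0.97 when floored at background and -1.11 with the mean of probe sets, with detection in both arrays or with background at the 99th percentile. The alternative for linear values was not applicable. No paired analysis was possible because each condition has 1 array. Without replicates or a second probe set, differences of the size seen in the members have no error here.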

Other observations

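Markers of cells other than CD4+ T cells were measured beside the Bcl2 family genes. No natural killer cell, neutrophil or red blood cell marker exceeded background in both arrays. The natural killer cell marker *Klrd1* was at 8.19 in the ND αCD4 array and below background in the isotype control array (7.34), at least 1.46-fold higher, and the other 4 of that list were below background in both arrays. *Alas2*, the 1 measured red blood cell marker, was at 7.74 in the ND αCD4 array and below background in the isotype control array (7.46), at least 1.07-fold higher. Over the markers above background in both arrays, linear summed signals differed, ND αCD4 minus isotype control on the log2 scale, by 0.52 for the 2 CD8 T cell markers, by 0.16 for 3 of 6 macrophage and monocyte markers and by 0.09 for 4 of 5 B cell markers. The differences were 0.06 for 5 of 5 fibroblast and endothelial cell markers and 0.04 for 2 of 3 plasma cell markers. They were -0.05 for 2 of 6 dendritic cell markers and -0.01 for 1 of 3 exocrine pancreas markers (*Cela1*). A linear sum is weighted to its brightest marker. In the ND αCD4 array this was *Pecam1* (11.97) among fibroblast and endothelial cell markers and *Xbp1* (11.39) among plasma cell markers, so these sums describe mostly 1 gene each. The part of other cell types in the values of the members was not tested.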
